A study of Mus musculus with 24 samples.

Results

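Urea cycle and transamination genes form a set of 10: Cps1, Otc, Ass1, Asl, Arg1, Nags, Gls2, Got1, Gpt and Gpt2. They were chosen by name, as every gene probe of the array whose gene name equals a member, which gave 17 probes, and all 10 genes were among the 21331 genes tested. RNA of 24 male C57Bl/6J mouse livers was hybridised, 6 mice in each of 4 groups. LWT mice express PPARα, the fatty acid-sensing nuclear receptor, in hepatocytes and LKO mice do not. In each genotype 6 mice were gavaged with CL316243, which activates the beta3 adrenergic receptor, at a dose of 3 mg/kg, and 6 with the vehicle alone, sterilized water with 0.5% carboxymethyl cellulose. Gavage was at ZT10, 10 h after lights on, and all livers were taken at ZT16, in the dark phase. Standard diet was given ad libitum to all groups. The mice's age, the Cre driver and the deleted part of Ppara are not given in the sources used here. Adipocytes are the best known site of beta3 receptors in the mouse.

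The urea cycle detoxifies ammonia. NAGS, in mitochondria, makes N-acetylglutamate, the activator that CPS1 needs to join ammonia and bicarbonate into carbamoyl phosphate, and OTC adds this to ornithine to give citrulline. In the cytosol ASS1 joins citrulline to aspartate, ASL splits the product into arginine and fumarate, and ARG1 releases urea and regenerates ornithine. GLS2, the liver-type glutaminase, feeds ammonia and glutamate to the same periportal hepatocytes, and the aminotransferases move amino groups: GOT1 makes aspartate in the cytosol, GPT acts on alanine in the cytosol and GPT2 does so in mitochondria. These enzymes are abundant in hepatocytes and are classically raised by glucagon, glucocorticoids and protein intake.

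Levels are log2 processed intensities minus the 75th percentile of the array, so that a level of 0 is the 75th percentile. Each gene is represented by its brightest probe, and no probe's level can be set against that of another. Probes are 60 bases long, and their sites are given in mm9. The brightest probes lie at chr1:67276029-67276088 for Cps1, chrX:9897267-9897326 for Otc, chr2:31376068-31376127 for Ass1 and chr5:130487513-130487736 for Asl. Those of Arg1, Nags and Gls2 lie at chr10:24636194-24636253, chr11:102009515-102009574 and chr10:127646830-127646889. Those of Got1, Gpt and Gpt2 lie at chr19:43574278-43574337, chr15:76530007-76530066 and chr8:88050856-88050915. The Asl site is longer than its probe, so this probe crosses an intron.

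3 probe sequences are shown because results below turn on them: the Arg1 probe, the brightest Asl probe and the dimmer Gpt probe. The last is the 1 of 17 member probes whose response passed as different between genotypes, where 5.96% of all probes did. All 3 are written 5′ to 3′ as the scanner tables give them, with nothing marked.
Arg1 A_51_P303160 (from base 674 of NM_007482): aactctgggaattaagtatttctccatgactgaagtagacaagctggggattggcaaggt
Asl A_55_P2905225 (from base 1331 of NM_133768): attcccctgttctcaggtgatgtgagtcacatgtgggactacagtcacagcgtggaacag
Gpt A_66_P118269 (from base 769 of NM_182805): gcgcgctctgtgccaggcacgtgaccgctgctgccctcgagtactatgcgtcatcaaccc
Their GC contents were 43.3%, 51.7% and 65%.

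Of the member genes, 5 of 10 had an entry in the RefSeq promoter table (GRCm38.p6): Otc, Ass1, Nags, Got1 and Gpt2. The 250 bases before the start are shown for Nags and Gpt2, the members with an entry that fell and rose, respectively, in both genotypes. They are 5′ to 3′ on the gene's strand, here plus.
Nags chr11:102145263-102145512: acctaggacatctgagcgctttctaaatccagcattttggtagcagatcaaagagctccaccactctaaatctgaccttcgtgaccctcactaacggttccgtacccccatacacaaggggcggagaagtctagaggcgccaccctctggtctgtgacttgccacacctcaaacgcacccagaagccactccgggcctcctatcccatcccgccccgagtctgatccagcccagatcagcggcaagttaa
Gpt2 chr8:85492326-85492575: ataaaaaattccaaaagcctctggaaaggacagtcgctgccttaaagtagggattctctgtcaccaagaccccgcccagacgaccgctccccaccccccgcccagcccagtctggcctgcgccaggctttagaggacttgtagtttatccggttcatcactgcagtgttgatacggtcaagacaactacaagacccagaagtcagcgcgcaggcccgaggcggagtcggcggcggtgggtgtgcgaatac
On both strands the windows of all 5 genes were searched for the cAMP response element TGACGTCA, its shorter form TGACG, which the full element contains, the C/EBP core TTGCNNAA, and AGGTCA repeated after a gap of 1 base with at most 2 mismatches, the kind of repeat PPARα binds. None of these letters was found in them, so nothing is in capitals. Among 32851 promoters of the same length, 1.55% held the full element, 17.8% the shorter form, 9.56% the C/EBP core and 3.24% the repeat.

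The 75th percentile of the intensities ranged from 397.4 to 577.7 over the arrays, and 26985 to 34202 probes of an array were well above background. Ppara itself had a mean level of 5.68 ± 0.16 (SD, n = 6) in LWT and 5.01 ± 0.15 in LKO vehicle mice, and of 6.23 ± 0.27 and 4.32 ± 0.64 with CL316243. The groups of the 2 genotypes did not overlap under either treatment, and the exact two-sided permutation test over mice gave p = 0.00216 for each. This is the smallest p that its 924 splits allow. In limma, adjusted over all genes, the difference was -0.68 under vehicle (adjusted p = 0.158) and -1.91 with CL316243 (adjusted p = 3.6e-07). The other Ppara probe passed under vehicle (-0.92, limma, adjusted p = 0.0188 over all probes). With CL316243 the brightest Ppara probe rose by 0.55 in LWT and fell by 0.69 in LKO, both with a call. The Ppara probes start at bases 2273 and 7356 of its transcript, and whether they lie in the deleted part is not given, so these values do not measure the deletion itself. Whole liver was used, so that fewer cells of a type and less RNA per cell cannot be told apart. Of the hepatocyte markers, all 7 tested were well above background on every array, albumin among them. Their summed level, in units of the array's 75th percentile, ranged in LWT mice from 3185 to 3466 with vehicle and from 3539 to 4285 with CL316243, without overlap. In LKO mice it ranged from 3140 to 3896 with vehicle and from 3392 to 4387 with CL316243. Taken singly, 1 of the 7 passed an adjusted p of 0.05 (limma) in LWT, Fgb, which rose by 0.54 on the log2 scale. In LKO 2 rose, Fgb by 0.69 and Apob by 0.22, and 1 fell, Apoa1 by 0.25. Albumin passed in neither genotype. The part of the shift of the sum in the members' values was not tested. Of the pancreas and intestine markers, Prss1 and Slc5a1 were not well above background on any array, and Cela1 and Fabp2 were on all.

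**Figure D1:**
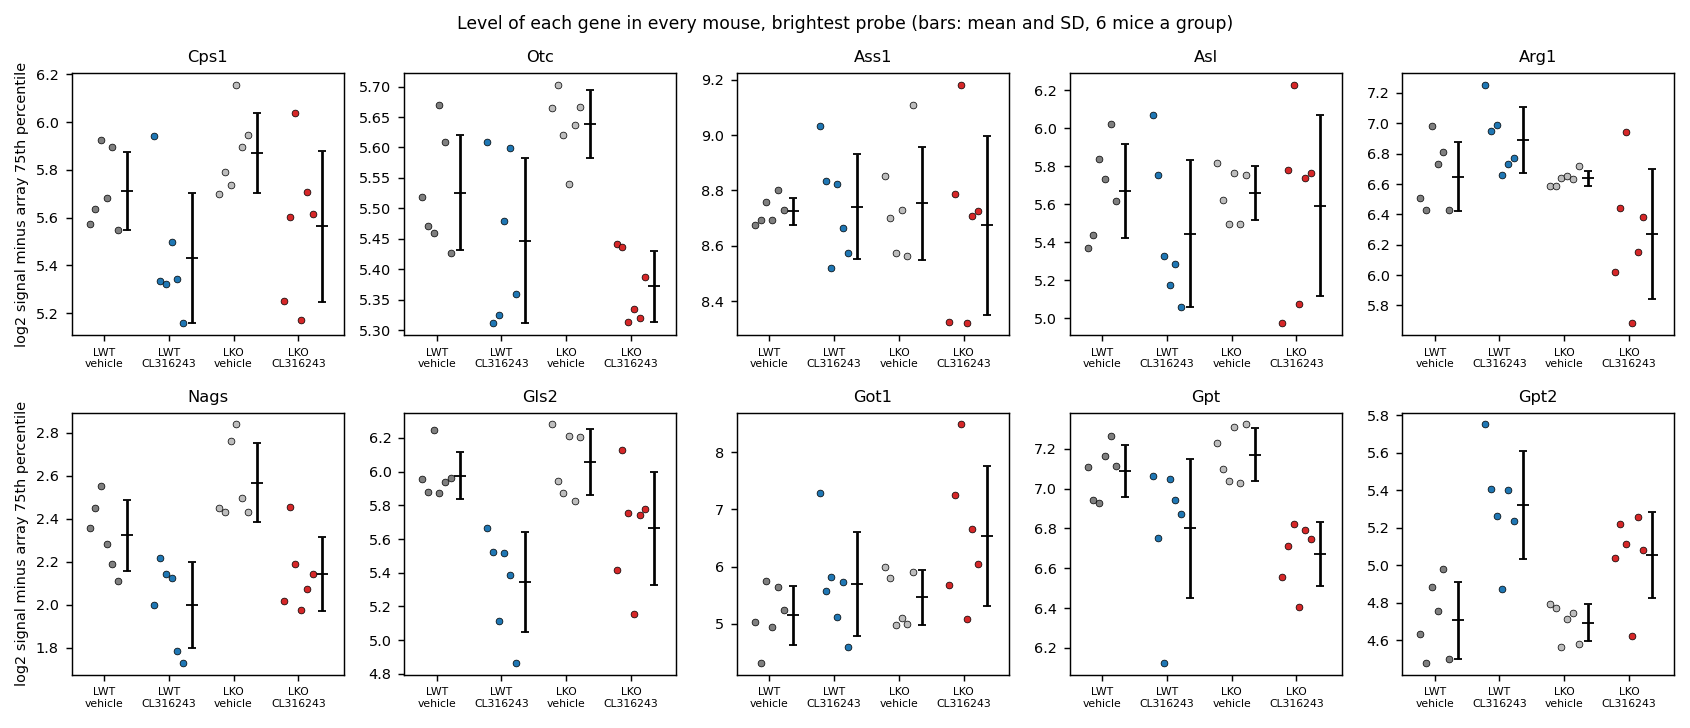
Level of the 10 genes in every mouse. Each panel has its own vertical axis, the log2 processed intensity minus the array's 75th percentile; points are mice, bars the mean and SD of 6. Gls2 in LWT and Otc and Gpt in LKO are the members whose treated and vehicle mice do not overlap; the Got1 axis spans the widest range.

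At the brightest probes, the members that passed with CL316243 changed by 1.2-fold to 1.55-fold. In LWT livers 3 of 10 members passed an adjusted p of 0.05 (limma, Benjamini-Hochberg over all genes): Gpt2 rose, and Nags and Gls2 fell. In LKO livers 5 of 10 passed: Gpt2 rose, and Otc, Nags, Gls2 and Gpt fell. These counts stood beside a broad response, since 38.3% of all genes passed in LWT (18.9% higher, 19.4% lower) and 40.3% in LKO (20.9% higher, 19.4% lower). The members' total share is near this background in both genotypes. By direction, 2 of 10 members were lower in LWT and 4 of 10 in LKO, beside 19.4% of all genes in each. In each genotype 1 of 10 was higher, beside 18.9% and 20.9%. These differences in share were not tested. The median log2 difference of the 10 genes was -0.15 in LWT and -0.29 in LKO, and that of all genes was 0.01 and 0.03. All 6 treated mice lay beyond all 6 vehicle mice for 1 member in LWT (Gls2), where 20.4% of genes did so, and for 2 in LKO (Otc and Gpt), where 20.8% did. Under quantile normalization 6 members passed in LWT and 8 in LKO, and with the values of the series table there were 5 and 8. The share of all genes that passed under these settings is not given here, so these counts have no background beside them.

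**Figure D2:**
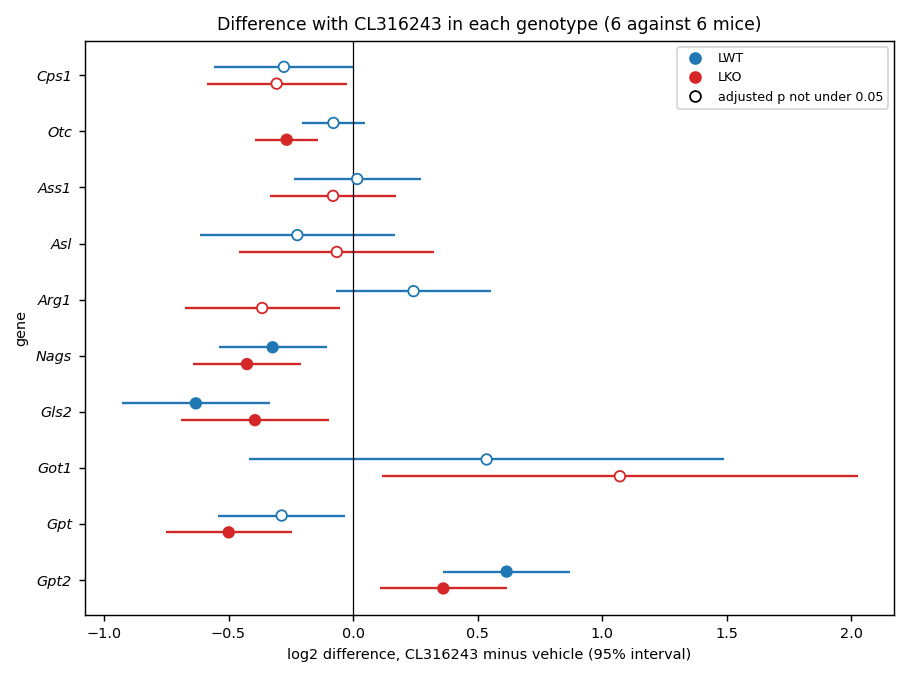
Log2 difference between CL316243 and vehicle for each gene, with its 95% interval, in LWT (blue) and LKO (red) livers, 6 against 6 mice. Filled points passed an adjusted p of 0.05. Got1 has the widest intervals, and Arg1 has a positive difference in LWT and a negative difference in LKO, neither of which passed.

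Among the mitochondrial enzymes, Nags fell in both genotypes. Its levels were 2.11, 2.32 and 2.55 (lowest, median and highest of 6) in LWT vehicle mice and 1.73, 2.06 and 2.22 in treated LWT mice. In LKO mice they were 2.43, 2.47 and 2.84 with vehicle and 1.98, 2.11 and 2.45 with CL316243. Every treated mouse was below the vehicle mean of its genotype, although the ranges met. The log2 difference was -0.32 (SE 0.10, adjusted p = 0.0178) in LWT and -0.43 (SE 0.10, adjusted p = 0.00251) in LKO, a fall of 1.25-fold and 1.34-fold. At the brightest probes, Nags also came nearest of the members to a difference between vehicle groups. It was 0.25 higher in LKO (limma, unadjusted p = 0.028, adjusted p = 0.502). The dimmer Gpt probe, described below, came nearer, at 0.39 higher in LKO (limma, unadjusted p = 0.0016).

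Cps1, the enzyme that NAGS serves, did not pass in either genotype. Its levels were 5.55, 5.66 and 5.93 in LWT vehicle mice and 5.16, 5.34 and 5.94 in treated mice, and 5.70, 5.85 and 6.16 in LKO vehicle mice and 5.17, 5.61 and 6.04 in treated mice. In each genotype 5 of 6 treated mice lay below the vehicle mean and 1 above it. The log2 differences were -0.28 (95% interval -0.56 to 0.00, adjusted p = 0.113) and -0.31 (-0.59 to -0.03, adjusted p = 0.076). This call depended on the scaling: under quantile normalization Cps1 was lower in LWT (-0.36, adjusted p = 0.025) and in LKO (-0.34, adjusted p = 0.0296), and it passed in both with the series table. Without LWT treated mouse 1 (mice are numbered as in the labels), the treated mouse above the mean, it was -0.38 in LWT (adjusted p = 0.0221).

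Otc had a narrow range of values. In LWT mice the levels were 5.43, 5.50 and 5.67 with vehicle and 5.31, 5.42 and 5.61 with CL316243. In LKO mice they were 5.54, 5.65 and 5.70 with vehicle and 5.31, 5.36 and 5.44 with CL316243, and these groups did not overlap. Its log2 difference was -0.08 in LWT (SE 0.06, adjusted p = 0.334) and -0.27 in LKO (SE 0.06, adjusted p = 0.0014), a fall of 1.20-fold. The LKO difference was -0.27, -0.27 and -0.26 within the 3 slides. Passing in LKO and not in LWT does not show that the responses differ: the interaction was -0.19 (SE 0.09, unadjusted p = 0.0405, adjusted p = 0.247). Under quantile normalization Otc also passed in LWT (-0.16, adjusted p = 0.0389).

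Ass1, the first cytosolic enzyme of the cycle, did not pass in either genotype. Its levels were 8.67, 8.71 and 8.80 in LWT vehicle mice, 8.52, 8.74 and 9.03 in treated LWT mice, 8.56, 8.71 and 9.11 in LKO vehicle mice and 8.32, 8.71 and 9.18 in treated LKO mice. The medians of all 4 groups lay between 8.71 and 8.74. CL316243 minus vehicle was 0.02 in LWT (95% interval -0.24 to 0.27) and -0.08 in LKO (-0.33 to 0.17), and in LKO it passed under quantile normalization (-0.24, adjusted p = 0.0339).

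Asl, measured with its brightest probe, did not pass either. The levels were 5.37, 5.67 and 6.02 in LWT vehicle mice and 5.06, 5.31 and 6.07 in treated LWT mice. In LKO mice they were 5.49, 5.69 and 5.82 with vehicle and 4.97, 5.75 and 6.23 with CL316243. The treated mice spread over a wider range than the vehicle mice of their genotype. The log2 differences were -0.22 (95% interval -0.61 to 0.17, adjusted p = 0.379) and -0.07 (-0.46 to 0.33, adjusted p = 0.808).

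Arg1, the last enzyme of the cycle, was the member that differed between genotypes. Its levels were 6.43, 6.62 and 6.98 in LWT vehicle mice and 6.66, 6.86 and 7.25 in treated LWT mice. In LKO vehicle mice they were 6.59, 6.64 and 6.72, and in treated LKO mice 5.68, 6.27 and 6.94. All 6 treated LWT mice lay above the LWT vehicle mean, and 5 of 6 treated LKO mice lay below the LKO vehicle mean. Under CL316243 Arg1 was 0.62 lower in LKO than in LWT on the log2 scale (SE 0.15, adjusted p = 0.00567, 1.54-fold). The ranges overlapped, and 5 of 6 treated LKO mice lay under the mean of treated LWT mice. It was the single member of 10 to pass there, where 15.9% of genes did (8.17% lower), and no member was free of overlap, against 6.57% of genes.

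Under vehicle the Arg1 difference between genotypes was -0.01 (SE 0.15). The responses themselves were 0.24 in LWT (adjusted p = 0.217) and -0.36 in LKO (adjusted p = 0.057), and the interaction of -0.61 (SE 0.21) had an unadjusted p of 0.00902 and an adjusted p of 0.107. Without LKO treated mouse 3, the highest LKO mouse, the interaction was -0.74 (adjusted p = 0.012) and the LKO response -0.50 (adjusted p = 0.00421). The LKO response also passed under quantile normalization (-0.42, adjusted p = 0.0154). When the 2 treated groups alone entered the fit, the genotype difference had an adjusted p of 0.0527. It was -0.02, -0.76 and -1.07 within the 3 slides, each with 2 mice a group.

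At the brightest probes no member passed for the interaction (limma), where 5.41% of genes did. There 2 had an unadjusted p under 0.05, Otc and Arg1. At the same probes none passed between LKO and LWT under vehicle, where 1.18% of genes did. Of the members, 1 (Nags) had an unadjusted p under 0.05 (limma), and none was free of overlap, against 1.8% of genes.

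Gls2, the glutaminase of periportal hepatocytes, fell in both genotypes. Its levels were 5.87, 5.95 and 6.25 in LWT vehicle mice and 4.87, 5.45 and 5.66 in treated LWT mice, which did not overlap. In LKO mice they were 5.83, 6.07 and 6.28 with vehicle and 5.16, 5.75 and 6.13 with CL316243, which did. The log2 difference was -0.63 (SE 0.14, adjusted p = 0.00137, 1.55-fold) in LWT and -0.39 (SE 0.14, adjusted p = 0.0328, 1.31-fold) in LKO. The LKO call was lost when any of 5 single mice was left out, LKO vehicle mice 1, 4 and 6 and LKO treated mice 1 and 4, with adjusted p between 0.0637 and 0.0906. Of 13 other alternatives 5 also lost it, among them array weights (limma, adjusted p = 0.0579) and no filter on dim probes (limma, adjusted p = 0.0664). The interaction was 0.24 (SE 0.20, adjusted p = 0.601).

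The alanine aminotransferases moved in opposite directions. Gpt2, the mitochondrial enzyme, had levels of 4.48, 4.69 and 4.98 in LWT vehicle mice and 4.87, 5.33 and 5.75 in treated LWT mice, and of 4.56, 4.73 and 4.79 in LKO vehicle mice and 4.62, 5.10 and 5.26 in treated LKO mice. It rose by 0.62 in LWT (SE 0.12, adjusted p = 3.98e-04, 1.53-fold), in 6 of 6 mice. In LKO it rose by 0.36 (SE 0.12, adjusted p = 0.0223, 1.29-fold), in 5 of 6 mice. The LKO call was lost without LKO treated mouse 2 (adjusted p = 0.0515) or 5 (0.0547).

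Gpt, the cytosolic enzyme, had levels of 6.93, 7.11 and 7.27 in LWT vehicle mice and 6.13, 6.91 and 7.07 in treated LWT mice. In LKO mice they were 7.03, 7.16 and 7.32 with vehicle and 6.40, 6.73 and 6.82 with CL316243, without overlap. The log2 difference in LKO was -0.50 (SE 0.12, adjusted p = 0.00246, 1.41-fold), and 6 of 6 mice were lower. In LWT it was -0.29 (SE 0.12, adjusted p = 0.0691), also with 6 of 6 mice below the vehicle mean, and it passed under quantile normalization (-0.38, adjusted p = 0.0074) and with the series table (-0.37, adjusted p = 0.0063). It also passed without LWT treated mouse 1 (-0.34, adjusted p = 0.0396), whereas without LWT treated mouse 3, the lowest of that group, it was -0.15 (adjusted p = 0.197).

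Got1, the cytosolic aspartate aminotransferase, had wide spread in the treated groups. Its levels were 4.32, 5.13 and 5.74 in LWT vehicle mice and 4.60, 5.65 and 7.29 in treated LWT mice. They were 4.98, 5.44 and 6.00 in LKO vehicle mice and 5.09, 6.35 and 8.48 in treated LKO mice. The SD was 0.48 to 0.52 in the vehicle groups and 0.91 and 1.22 in the treated groups. The log2 difference was 0.54 in LWT (SE 0.46, adjusted p = 0.388) and 1.07 in LKO (SE 0.46, adjusted p = 0.0682), and neither passed. The LKO value was 2.42, -0.03 and 0.82 within the 3 slides. Single mice decided the size. Without LKO treated mouse 3 the LKO difference was 0.68 (adjusted p = 0.203), and without LWT treated mouse 1 the LWT difference was 0.22 (adjusted p = 0.746). Without LKO treated mouse 4 the LKO difference was 1.36 (adjusted p = 0.0188), and it also passed without LKO treated mouse 1 or LWT treated mouse 1, with adjusted p of 0.0437 and 0.0446.

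At the scaled levels, the treated mice differed from each other in the same way for many members. LWT treated mouse 1 was the highest of its group for 9 of 10 members, all but Nags. LKO treated mouse 3 was the highest of its group for 6 (Cps1, Ass1, Asl, Arg1, Got1 and Gpt), and LKO treated mouse 4 the lowest for 8 (all but Otc and Asl). The array's 75th percentile, used for scaling, was 422.1 for LWT treated mouse 1 and 413.4 for LKO treated mouse 3, the lowest of their groups. For LKO treated mouse 4 it was 502.2, the highest of its group. Before scaling, LWT treated mouse 1 was still the highest of its group for Cps1, Asl, Arg1, Got1 (66110) and Gpt2. For Otc, Ass1, Gls2 and Gpt it was not (for Gpt 56553, against 66628 in LWT treated mouse 4). The part of the scaling in these ranks was not tested. Against the vehicle mean of its genotype, Got1 stood at 2.14 in LWT treated mouse 1, at 3.02 in LKO treated mouse 3 and at -0.38 in LKO treated mouse 4. Arg1 stood at 0.60, 0.31 and -0.95 in the same mice. LKO treated mouse 3 also had the lowest Ppara level, 3.06, where the other LKO treated mice had 4.35 to 4.85. Without it, 7 members passed in LKO in place of 5, and without LWT treated mouse 1, 5 passed in LWT in place of 3. Over all 21331 genes, leaving out 1 mouse at a time gave 7315 to 8902 calls in LWT and 7835 to 8894 in LKO.

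**Figure D3:**
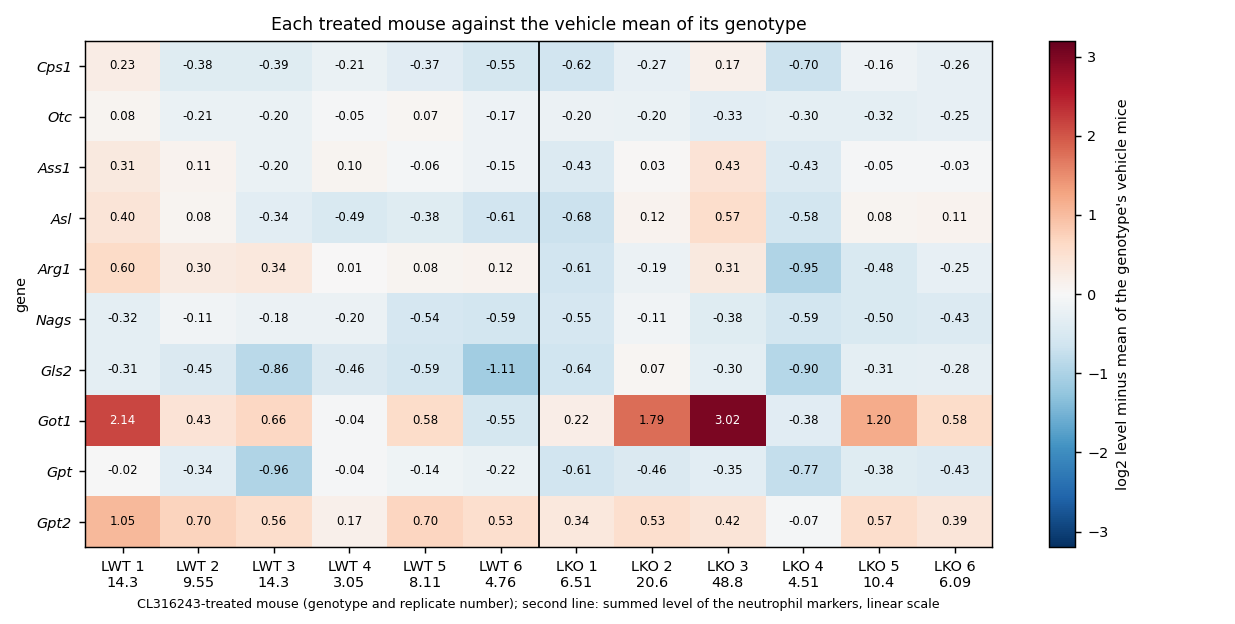
Level of each gene in each CL316243-treated mouse minus the mean of the 6 vehicle mice of its genotype (log2; red higher, blue lower). Under each mouse stands the summed linear level of the 7 neutrophil markers. The Got1 row runs from -0.55 to 3.02, and LKO mouse 3 has both the highest Got1 value and the highest neutrophil marker sum.

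Some markers of other cells moved with the treatment in the same livers. Their counts stand beside the share of all genes called with CL316243, 38.3% in LWT and 40.3% in LKO. Of 7 neutrophil markers, 3 rose and 1 fell with CL316243 in LWT, and 5 rose in LKO. Their summed linear level, in units of the array's 75th percentile, was 2.86 to 6.11 in LWT vehicle, 3.05 to 14.35 in LWT treated, 2.87 to 4.14 in LKO vehicle and 4.51 to 48.8 in LKO treated mice. It was 48.8 in LKO treated mouse 3, 4.51 in LKO treated mouse 4, the lowest of that group, and 14.32 in LWT treated mouse 1. LWT treated mouse 3 had a similar sum, 14.35, and was the lowest of its group for Ass1 and Gpt. S100a8, S100a9 and Retnlg rose in both genotypes, and Elane and Cxcr2 rose in LKO. Ly6g fell in LWT (-0.38, adjusted p = 0.0343) and was -0.28 in LKO without a call, and Mpo passed in neither. S100a8, S100a9, Ly6g and Elane were well above background on every array. Retnlg was so on 4 of 6 LKO vehicle arrays, and Cxcr2 on 1 of 6 LKO vehicle and 4 of 6 LKO treated arrays. Of 8 macrophage and Kupffer cell markers none passed in any comparison, and their sum ranged from 53.7 to 117. Among 5 cholangiocyte markers 1 rose in LWT and 2 in LKO, and of 5 lymphocyte markers tested 2 fell in LWT, and 3 fell and 1 rose in LKO. Of 6 endothelial markers 2 rose and 1 fell in LWT, and 1 rose and 1 fell in LKO. Lyve1 rose by 1.18 (adjusted p = 0.00799) and 2.39 (adjusted p = 1.16e-05), Kdr fell by 0.40 and 0.56, and Pecam1 rose in LWT by 0.49. Of 5 stellate cell markers 1 fell in LWT, Lrat by 0.71, and none passed in LKO. The part of these cells in the members' values was not tested.

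The other probes of the members gave values that the brightest probes did not. Over all 17 probes, 8 passed for CL316243 in LWT (2 higher, 6 lower) and 10 in LKO (2 higher, 8 lower), where 37.6% and 41% of all 32037 probes tested did so. For the interaction 1 of 17 passed, against 5.96% of probes, and between genotypes 0 passed under vehicle (1.11% of probes) and 1 under CL316243 (15.4%).

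Asl has a probe at chr5:130498273-130498332, designed from transcript ENSMUST00000162230, which lies elsewhere in the gene than the brightest probe. It was above background on all 24 arrays. Its levels were 1.05, 1.73 and 2.54 in LWT vehicle mice and -1.35, -0.62 and -0.30 in treated LWT mice. In LKO mice they were 1.1, 1.58 and 2.01 with vehicle and -1.57, -0.31 and 0.01 with CL316243. Treated and vehicle mice did not overlap in either genotype. The log2 difference was -2.46 in LWT (SE 0.26, adjusted p = 2.31e-07) and -2.04 in LKO (SE 0.26, adjusted p = 3.86e-06), or 5.49-fold and 4.12-fold, while the brightest Asl probe passed in neither. Over the alternatives run it stayed between -2.59 and -2.21 in LWT and between -2.14 and -1.82 in LKO. The mean of both Asl probes would have passed in both genotypes, at -1.34 and -1.05. Whether this transcript contributes to ASL protein is not measured here.

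Otc has a probe at chrX:9893244-9893303, from the predicted transcript XM_011247449, that was well above background on 23 of 24 arrays. Its levels were -2.14, -1.92 and -1.72 in LWT vehicle mice and -3.99, -3.11 and -2.55 in treated LWT mice, and -2.05, -1.82 and -1.44 in LKO vehicle mice and -3.95, -3.59 and -3.37 in treated LKO mice. The groups did not overlap in either genotype. The log2 differences were -1.25 (SE 0.18, adjusted p = 1.0e-05) and -1.83 (SE 0.18, adjusted p = 1.57e-07), several times those of the brightest Otc probe. The probe is dim, and with the series table, whose values are not background-subtracted, the differences were -0.65 and -0.92, still with a call.

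Gpt has a probe at chr15:76528440-76528499 in the same transcript as its brightest probe, shown above. Its levels were 1.80, 1.90 and 2.17 in LWT vehicle mice and 1.37, 1.67 and 1.82 in treated LWT mice, and 2.06, 2.32 and 2.67 in LKO vehicle mice and 1.0, 1.49 and 1.63 in treated LKO mice. In LKO the groups did not overlap. The log2 difference was -0.92 in LKO (SE 0.11, adjusted p = 1.62e-06). In LWT it was -0.28 (SE 0.11, adjusted p = 0.0479), a call lost in 17 of 31 alternatives. This was the member probe whose interaction passed, at -0.64 (SE 0.15, adjusted p = 0.014), and it did so in all 31 alternatives. Under vehicle this probe was 0.39 higher in LKO than in LWT (SE 0.11, unadjusted p = 0.0016, adjusted p = 0.101), with all 6 LKO mice above the LWT mean, and it passed with array weights (adjusted p = 0.0152). Under CL316243 it was 0.25 lower in LKO (adjusted p = 0.138). The brightest Gpt probe had an interaction of -0.21 (adjusted p = 0.574).

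**Figure D4:**
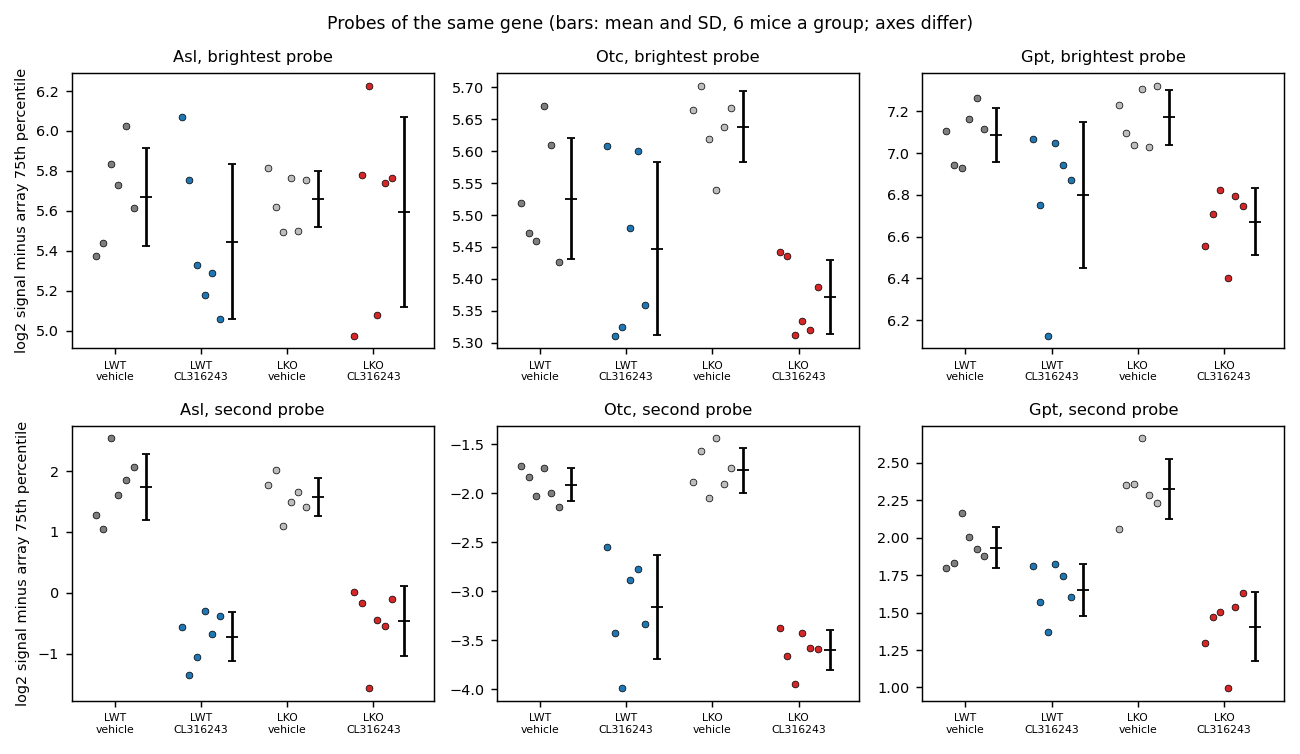
The brightest probe (top) and the other probe (bottom) of Asl, Otc and Gpt in every mouse, with the mean and SD of 6 mice. Each panel has its own vertical axis, log2 intensity minus the array's 75th percentile. The lower Asl and Otc probes separate treated from vehicle mice in both genotypes. The upper Otc probe does so in LKO alone, and the upper Asl probe in neither.

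The remaining pairs moved the same way. The other Gls2 probe fell by 0.57 in LWT (adjusted p = 0.0398) and by 0.87 in LKO (adjusted p = 0.00249), although the LWT call was lost in 6 of 31 alternatives. The other Gpt2 probe, which crosses an intron, rose by 0.59 (adjusted p = 8.52e-04) and 0.58 (adjusted p = 0.00101). The other Got1 probes showed differences of 0.69 and 0.72 in LWT and of 1.0 and 0.99 in LKO, with no call, as at the brightest probe.

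For the members called with CL316243, the genes whose profiles over 24 arrays lay closest were found by the root mean square of the log2 difference, after centring each gene on its LWT vehicle mean. Otc lay closest to Tmco1 (0.06) and Rnf115 (0.08), and Nags to Stk11 and Tnfsf12 (both 0.14). Gls2 lay closest to Dcaf11 and Disc1 (both 0.16), Gpt to Pxmp2 and Aldh4a1 (both 0.10), and Gpt2 to Nipa2 (0.16) and Serinc3 (0.17). For scale, the root mean square of each member's own centred profile was 0.13 for Otc, 0.28 for Nags and 0.42 for Gls2. It was 0.32 for Gpt and 0.41 for Gpt2. Shared regulation was not tested. Aldh4a1, which degrades proline to glutamate, is on the glutamate list below.

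The counts of the gene lists that follow stand beside the share of all genes called, 38.3% in LWT and 40.3% in LKO, of which 19.4% were lower in each. Of 9 partners for ornithine, citrulline and aspartate supply 8 were tested, and Arg2, the mitochondrial arginase, was too dim to test. In LWT 1 fell, Sirt3, a mitochondrial deacylase, at -0.41 (adjusted p = 0.00902). In LKO 1 rose, Slc25a15, the mitochondrial ornithine carrier, at 0.79 (adjusted p = 0.0224). A further 3 fell in LKO, with Sirt5 lowest at -0.78 (adjusted p = 4.90e-04). Slc25a13, the aspartate-glutamate carrier citrin, fell in LKO by 0.52 (adjusted p = 3.10e-04) and under CL316243 was 0.58 lower in LKO than in LWT (adjusted p = 2.83e-04). Its interaction did not pass (-0.38, adjusted p = 0.147). Oat, ornithine aminotransferase, differed by 0.17 and -0.27, with no call.

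Of 11 genes of glutamate, glutamine and ammonia handling, 2 rose and 4 fell in LWT, and 2 rose and 5 fell in LKO. Car5a, the mitochondrial carbonic anhydrase that supplies bicarbonate for carbamoyl phosphate, fell by 1.87 in LWT (SE 0.22, adjusted p = 1.25e-06) and by 1.84 in LKO (SE 0.22, adjusted p = 2.17e-06). Both were larger than any change of a member at its brightest probe. Glul, glutamine synthetase, rose in LWT by 0.39 (adjusted p = 0.00266) and differed by 0.13 in LKO without a call. Aldh18a1, of proline and ornithine synthesis, rose in LKO by 1.72 (adjusted p = 5.07e-04). Glud1, glutamate dehydrogenase, fell in LWT by 0.26 (adjusted p = 0.0184) and differed by -0.19 in LKO (adjusted p = 0.0699).

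Got2, the mitochondrial partner of GOT1, was the gene of this list with an interaction, at -0.32 (adjusted p = 0.0468). It fell in LKO by 0.18 (adjusted p = 0.0303), differed by 0.13 in LWT without a call, and under CL316243 was 0.44 lower in LKO than in LWT (adjusted p = 3.79e-05). Slc1a2, a glutamate transporter, was 0.45 higher in LKO under CL316243 (adjusted p = 0.0274).

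Of 25 genes of amino acid catabolism, 3 rose and 8 fell in LWT and 3 rose and 13 fell in LKO, and the LWT total is near the share of all genes called. The median log2 difference of the 25 was -0.16 and -0.24, against 0.01 and 0.03 over all genes. At the extremes, Psat1, of serine synthesis, rose by 2.45 (adjusted p = 0.00417) and 3.73 (adjusted p = 8.93e-05), and Hal, which degrades histidine, fell by 2.30 (adjusted p = 3.54e-07) in LWT and by 1.20 (adjusted p = 6.60e-04) in LKO. Under CL316243 Hal was 1.05 higher in LKO than in LWT (adjusted p = 0.00527) and Ftcd, also of histidine breakdown, 0.32 lower (adjusted p = 0.029). Tat and Sds, classical glucagon-responsive enzymes, differed by 0.07 and -0.06 in LWT and by 0.03 and 0.19 in LKO, with SEs of 0.36 and 0.51 and no call.

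Of 10 amino acid transporters, 3 rose and 3 fell in LWT and 4 rose and 2 fell in LKO. Slc38a2, a sodium-coupled neutral amino acid transporter, rose by 1.14 in LWT (adjusted p = 0.0249). Slc7a1, the cationic amino acid transporter that carries arginine and ornithine, rose by 1.91 in LKO (adjusted p = 3.05e-04) and was 1.27 higher in LKO than in LWT under CL316243 (adjusted p = 0.0207). Slc43a1 fell by 0.99 (adjusted p = 0.0285) and 1.19 (adjusted p = 0.00927).

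Of 13 regulators of these pathways, 2 rose and 6 fell in LWT and 4 rose and 5 fell in LKO. Cebpb rose by 0.85 (adjusted p = 0.0165) and 1.0 (adjusted p = 0.00547). Klf15, a transcription factor that drives amino acid breakdown, fell by 1.15 (adjusted p = 2.80e-04) and 1.37 (adjusted p = 4.51e-05), and Gcgr, the glucagon receptor, by 0.41 (adjusted p = 0.00705) and 0.35 (adjusted p = 0.0187). Ppargc1a, a coactivator of mitochondrial and gluconeogenic genes, fell by 1.47 in LWT (adjusted p = 0.00513) and differed by 0.62 in LKO without a call. Its interaction of 2.09 passed (adjusted p = 0.0282) and under CL316243 it was 1.66 higher in LKO (adjusted p = 0.00505). Foxo3 fell by 1.38 in LWT and by 0.68 in LKO, and its interaction of 0.70 also passed (adjusted p = 0.021). Tcf7l2 was 0.64 lower there (adjusted p = 0.00675).

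Because the cycle is periportal, markers of the liver zones were counted. Of 8 periportal genes other than the members, 1 rose and 4 fell in LWT, with Hsd17b13 at 0.33 (adjusted p = 0.0476) and Cdh1 at -1.35 (adjusted p = 7.66e-04), and 1 fell in LKO, Aldh1b1 at -1.38 (adjusted p = 1.67e-05). Under CL316243 2 were higher in LKO, Etnppl by 1.21 (adjusted p = 0.0353) and Cyp2f2 by 0.21 (adjusted p = 0.0246). Of 7 pericentral genes 2 fell in LWT and 3 in LKO, with Lgr5, a Wnt target, lowest at -2.95 (adjusted p = 3.66e-04) and -2.19 (adjusted p = 0.00473). Cyp1a2 was 0.76 higher in LKO than in LWT under vehicle (adjusted p = 0.00145), and its interaction was -0.71 (adjusted p = 0.0218). Periportal and pericentral genes therefore both included falls, and the medians were -0.13 and 0.11 in LWT and -0.03 and -0.60 in LKO.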

How the data were processed

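Liver RNA of 24 mice, 6 in each of 4 groups, was measured on 1-colour (Cy3) arrays. The deposited scanner tables hold spot intensities; the submitters' processing notes name Agilent Feature Extraction version 10.10.1.1 and limma. The processed intensity is background-subtracted. The series table holds log2 values deposited by the authors; quantile-normalized log2 median signals of its 31367 probes lay within 0.01 of it for 99.26% of values.

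From the processed intensities, outlier spots were removed, spots of a probe averaged in log2, and each array's 75th percentile subtracted. Kept probes (32037) were called well above background by the scanner software on 4 or more of 6 arrays in some group, with 3 or more values in each group; the brightest probe stood for its gene (21331 genes). limma 3.58.1 (R 4.3.3) fitted 4 group means on all 24 arrays, with Benjamini-Hochberg adjustment over all genes, or over all probes for probe results. The precision is limited by the number of mice; the median SE was 0.132 for 2 groups and 0.187 for the interaction. The 3 slides held 2 mice of each group each. The fit was tested on simulated data.

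Named genes were the members, Ppara, the called genes with the highest and lowest change of each list, a short list of fixed genes, and the 2 closest profiles of each called member; beyond this rule, Foxo3, the markers and the genes with an interaction were named after their values were seen. The members and lists were chosen with earlier results of these data known. Alternatives were other background corrections, scalings, filters, blocks, weights, probe rules and leaving out each mouse; those for the members' other probes were chosen after seeing the data.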

Additional observations from a re-analysis of the deposited data

Results flagged for a closer look

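Within the 40 sets of 6 mice given by 10 genes and 4 groups, 3 had a sample far from the others by Dixon's criterion, and chance gives about 1 in 20. Gls2 stood at 6.25 in LWT vehicle mouse 3, where the nearest mouse had 5.96 (gap over range 0.769). Gpt stood at 6.13 in LWT treated mouse 3, where the nearest had 6.75 (0.664). Gpt2 stood at 4.62 in LKO treated mouse 4, where the nearest had 5.04 (0.654).

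The response of the dimmer Gpt probe differed between the genotypes by the interaction term, at -0.64 (limma, adjusted p = 0.014). It was 1 of 17 member probes to pass, near the 5.96% of all probes that did. The brightest Gpt probe had an interaction of -0.21 (limma, adjusted p = 0.574). Under vehicle the dimmer probe was 0.39 higher in LKO than in LWT, without a call.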

How the results depend on the processing

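Of the members' log2 changes recomputed under the alternatives, at the brightest probe or the mean of all probes, none reversed a call; 1829 kept their side of the threshold or moved by less than the spread, 41 gained a call, 18 lost it and 102 without a call moved. In LWT 6 members passed under quantile normalization, 5 with the series table, 5 with array weights and 6 with the mean of all probes, against 3. For these settings the share of all genes that passed with CL316243 is not given here, in either genotype. In LKO 8 passed under quantile normalization and 8 with the series table, against 5, and 0 by at least 1.5-fold (limma; 8 had an unadjusted p under 0.05 with no fold limit). Array weights gave 1 member for the interaction (Arg1, -0.60, adjusted p = 0.0178), and fitting only the treated groups gave 0 between genotypes under CL316243.

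Over all genes, the interaction had 1153 calls, 664 with no filter on dim probes and 2118 with array weights; LKO against LWT under vehicle had 251, 167 and 611. Under CL316243 the genotypes differed in 3393 genes, in 2203 with only those groups fitted and in 1627 by at least 1.5-fold; that limit left 3801 of 8180 in LWT and 3885 of 8596 in LKO. With no filter the median of all genes was 0.11 in LWT and 0.10 in LKO.

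Leaving out 1 mouse at a time gave 7315 to 8902 genes in LWT, 7835 to 8894 in LKO, 935 to 1535 for the interaction, 188 to 302 under vehicle and 2856 to 3958 under CL316243. Members numbered 3 to 5, 4 to 7, 0 to 1, 0 to 0 and 1 to 2.

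The labels do not say whether the mouse numbers pair mice. Same-numbered mice of 36 pairs correlated at -0.183 to 0.421, with 9 above 0.1. Differently numbered mice were not set beside them, so pairing cannot be judged from these values. With the replicate number as a block, 8309 genes passed in LWT and 8688 in LKO, with 3 and 5 members; Arg1 in LKO came to an adjusted p of 0.0499 and Gls2 in LKO to 0.0539. Signal over background limits the dimmer Otc probe, which was not well above background on 1 of 24 arrays.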
